A study of Mus musculus with 2 samples.

Results

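Receptor-interacting kinase 3 (Ripk3) and 8 further genes of the cell death machinery, Ripk1, Mlkl, Fadd, Casp8, Casp1, Casp12, Cflar and Tnfrsf1a, were followed in C2C12 myoblasts depleted of Mybbp1a. Their probes were found by gene name among the non-control spots of each array, which gave 17 of 41174 distinct probes for the 9 genes, and these were 9 of 18065 genes tested. The genes had been picked with ratios of this same knockdown comparison known, so their values are descriptions and carry no test.

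C2C12 is an established line of mouse skeletal myoblasts, derived from leg muscle of adult C3H mice. The knockdown cells carried a short hairpin RNA against Mybbp1a, which encodes a nucleolar protein that binds transcription factors. The control cells carried a control hairpin, and both were mixed stable clones grown subconfluent in medium with 20% fetal bovine serum. There were 2 two-colour arrays, labelled biological replicates 1 and 2, with the knockdown sample always in Cy5 and the control sample in Cy3. No dye swap was made, so dye and knockdown cannot be told apart, and whether the replicates came from separate clone pools or cultures is not given in the sources used here.

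Tumour necrosis factor receptor 1, the product of Tnfrsf1a, recruits the kinase RIPK1 and, in a later complex, the adaptor FADD and caspase-8. Active caspase-8 starts apoptosis and cleaves RIPK1 and RIPK3, and the caspase-like protein cFLIP (Cflar) modulates it. Where caspase-8 is blocked, RIPK3 phosphorylates the pseudokinase MLKL, which permeabilises the plasma membrane in the lytic death called necroptosis. Caspase-1 is the inflammatory caspase that matures interleukin-1 beta and drives pyroptosis, and caspase-12 is a mouse caspase linked to the endoplasmic reticulum.

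The 4 members that read higher in knockdown cells on both arrays were each measured by a single 60-base probe. The Casp12 probe, A_51_P487518, lay at chr9:5372258-5372317 of mouse build mm8, the build of the array files, and the Tnfrsf1a probe, A_52_P192426, at chr6:125327977-125328036. The Ripk3 probe lay at chr14:54739183-54739242. The Casp1 probe was placed at chr9:5306226-5306728, a span of 503 bp that is longer than the probe. Which exons these positions fall in was not analysed here. The Ripk3 and Casp1 probes are printed 5′ to 3′ because the largest ratios, and the largest differences between the arrays, each rest on one of them.
Ripk3 probe A_51_P491987: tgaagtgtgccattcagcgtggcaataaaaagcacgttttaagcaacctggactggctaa
Casp1 probe A_51_P142861: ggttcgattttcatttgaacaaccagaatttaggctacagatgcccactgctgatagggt

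All 17 probes were well above background in both colours on both arrays, and none was saturated. Over all non-control spots the median signal was 329 in the knockdown channel and 159 in the control channel of array 1, and 449 and 184 on array 2. Mybbp1a itself had log2 ratios of knockdown over control of -1.64 and -1.91, averaging -1.78 ± 0.19 (SD, n = 2), and was 3.42-fold lower in knockdown cells. Of the 18065 genes, 0 were called higher (0%) and 0 lower (0%) by limma at an adjusted p of 0.05, while 2414 (13.4%) were higher and 1354 (7.5%) lower at an unadjusted p under 0.05. With 2 arrays there was 1 residual degree of freedom, and the p-values measure only the spread between these arrays, which may be technical.

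Ripk3 was the member with the largest ratio. Levels are log2 intensities of a probe after background correction, loess and scaling of the arrays to each other, and they compare channels and arrays for the same probe only. The Ripk3 level was 11.99 and 11.45 in knockdown cells on arrays 1 and 2, against 10.94 and 7.89 in control cells. Both knockdown levels lay above both control levels, as they did for Casp1 and Casp12. How many of all tested genes separate in this way was not counted, so nothing is read from this separation. A ratio above 0 on both arrays is a looser condition, which 40.6% of them met. Array 1 gave a log2 ratio of 1.05 (2.07-fold) and array 2 one of 3.56 (11.8-fold), averaging 2.30 ± 1.78 (SD, n = 2) or 4.94-fold. It ranked 232nd of 18065 genes on array 1, 3rd on array 2 and 8th by the mean. These are bulk RNA measurements, in which fewer cells that express a gene and less RNA per cell cannot be told apart.

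The gap between the Ripk3 ratios came with the control channel. The level on array 2 minus that on array 1 was -0.54 log2 units in knockdown cells and -3.06 in control cells. Before any correction the mean spot signal of Ripk3 was 6362 and 4594 in knockdown cells on arrays 1 and 2, against 1306 and 149 in control cells, over local backgrounds of 47, 55.5, 45 and 44.5 in that order. The authors' deposited log ratios, put on a log2 scale, were 1.08 with an error of 0.23 on array 1 and 4.27 with an error of 0.45 on array 2, the error being that of Feature Extraction for a single array. Only 0.166% of tested genes had a larger difference between the arrays.

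**Figure D1:**
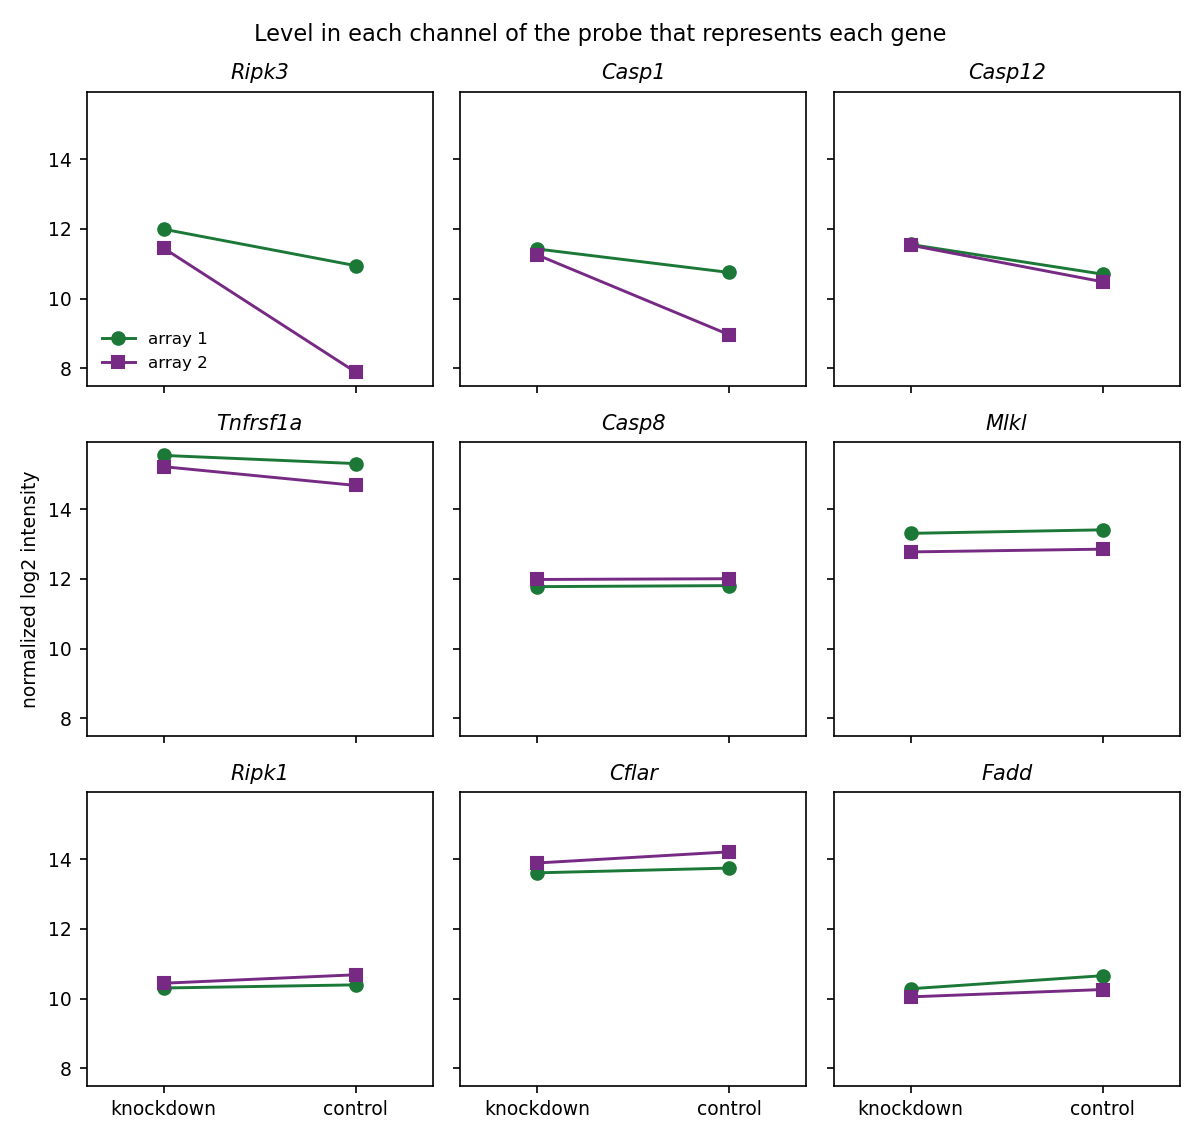
Normalized log2 intensity (vertical axis) in knockdown and control cells (horizontal axis) for the probe that represents each gene, with a line for each array. For Ripk3 and Casp1 the knockdown level on array 2 minus that on array 1 is -0.54 and -0.17, and the control difference is -3.06 and -1.79, whereas the 2 lines of the other 7 genes run close to parallel; heights of different genes are not comparable.

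Casp1 showed the same arrangement. Its level was 11.42 and 11.25 in knockdown cells on arrays 1 and 2, against 10.75 and 8.96 in control cells. The level on array 2 minus that on array 1 was -0.17 in knockdown cells and -1.79 in control cells. The log2 ratios were 0.67 and 2.30, averaging 1.48 ± 1.15 (SD, n = 2) or 2.80-fold, with the raw control signal at 1139 on array 1 and 305 on array 2. Across all tested genes 215 had a ratio at least 1 log2 unit higher on array 2 than on array 1. In 155 of these the control level was at least 1 unit lower on array 2, and in 7 the knockdown level was at least 1 unit higher there. In the opposite direction 216 genes had a ratio at least 1 unit lower on array 2, 140 of them with a control level at least 1 unit higher.

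Casp12 was the steadiest of the 3 members past 1.5-fold. Its level was 11.55 and 11.53 in knockdown cells on arrays 1 and 2, against 10.70 and 10.48 in control cells. The log2 ratio was 0.85 and 1.05, averaging 0.95 ± 0.14 (SD, n = 2), or 1.93-fold. The authors' deposited log ratios gave 0.85 with an error of 0.22 and 1.06 with an error of 0.23 on the log2 scale.

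Tnfrsf1a, the receptor at the head of the pathway, was printed on 10 spots of each array, of which 9 passed the outlier flags on each. Its level was 15.55 and 15.22 in knockdown cells on arrays 1 and 2, against 15.31 and 14.68 in control cells. The knockdown level of array 2 lay below the control level of array 1, so the groups overlapped across arrays while the ratio was above 0 within each. The log2 ratio over the spots ran from 0.14 to 0.36 on array 1 (mean 0.23 ± 0.08, SD over 9 spots) and from 0.49 to 0.58 on array 2 (mean 0.54 ± 0.03). The mean of the arrays was 0.39 ± 0.21 (SD, n = 2), or 1.31-fold. The spread of spots within an array was thus smaller than the difference between the arrays, and these spots share 1 RNA sample per channel and are no biological replicates. Over 245 probes printed at least 10 times the median SD over spots was 0.07 on array 1 and 0.06 on array 2.

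**Figure D2:**
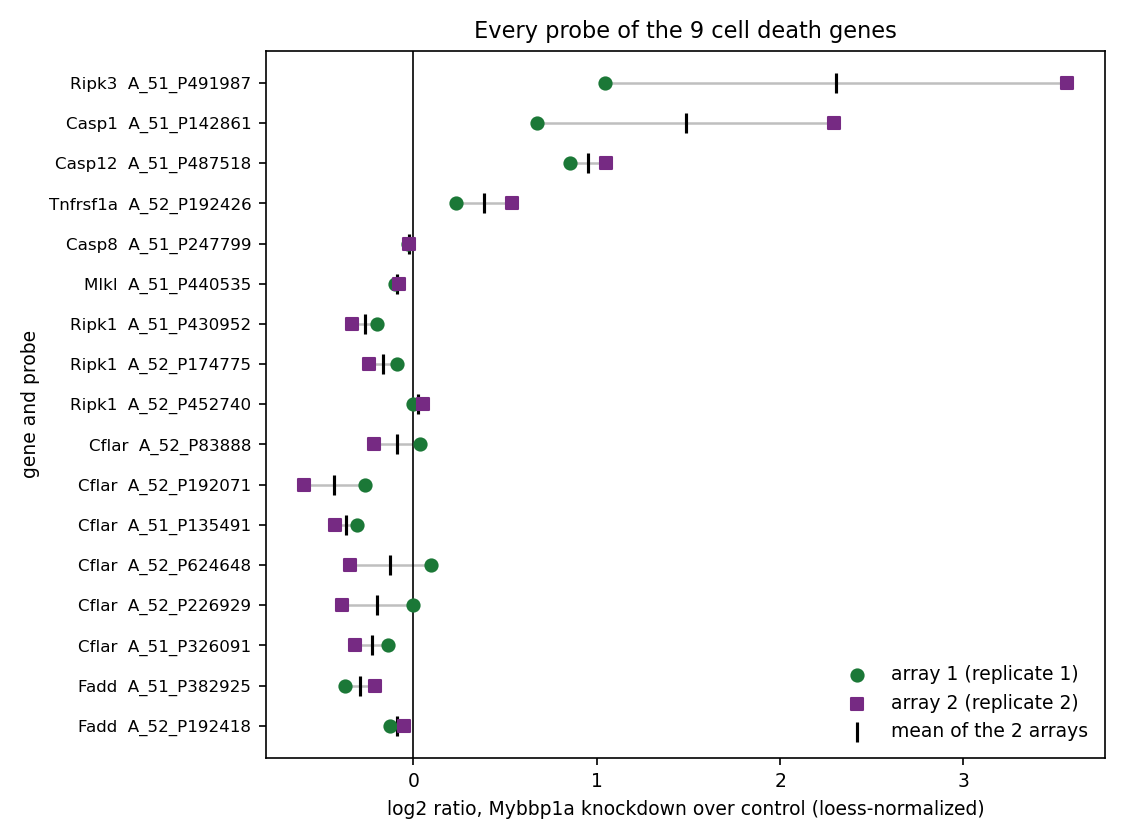
Log2 ratio of knockdown over control (horizontal axis) for each of the 17 probes (vertical axis), with circles for array 1, squares for array 2 and a tick at their mean. Ripk3, Casp1, Casp12 and Tnfrsf1a lie above 0 on both arrays, and the probes of the other 5 genes lie between -0.60 and 0.09; under median centring in place of loess the means of Ripk1, Mlkl, Casp8 and Cflar are above 0.

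The partners of RIPK3 in the necrosome stayed near the median of all genes, which was 0.03. Mlkl, the executioner of necroptosis, had a level of 13.31 and 12.77 in knockdown cells on arrays 1 and 2, against 13.41 and 12.85 in control cells. It gave log2 ratios of -0.10 and -0.08, averaging -0.09 ± 0.01 (SD, n = 2), and the deposited error of its ratio was 0.20 on each array. Its ratio was thus smaller than the error of a single array, and median centring put it at 0.22 against 0.21 for all tested genes.

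Ripk1, the kinase that joins the receptor to both the survival and the death complex, was read by 3 probes. The probe taken to represent it, A_52_P174775, had a level of 10.31 and 10.44 in knockdown cells on arrays 1 and 2, against 10.40 and 10.69 in control cells. That gave log2 ratios of -0.09 and -0.24, averaging -0.17 ± 0.11 (SD, n = 2). Probe A_51_P430952 gave -0.20 and -0.33, and probe A_52_P452740, the farthest along the chromosome, gave 0.00 and 0.05, so the probes did not share a sign. Median centring turned the representative mean to 0.09, which was 0.13 below the median of all genes under that setting.

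In the arm that leads to apoptosis, Casp8 had the mean ratio closest to 0 of the 9 genes. Its level was 11.78 and 11.98 in knockdown cells on arrays 1 and 2, against 11.81 and 12.01 in control cells, with log2 ratios of -0.03 and -0.02 (mean -0.03 ± 0.01, SD, n = 2). Median centring put Casp8 at 0.25, close to the 0.21 of all genes.

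Fadd, the adaptor that brings caspase-8 to the receptor complex, read lower on both arrays with both of its probes. The representative probe A_51_P382925 had a level of 10.29 and 10.05 in knockdown cells on arrays 1 and 2, against 10.66 and 10.26 in control cells. Its log2 ratios were -0.37 and -0.21, averaging -0.29 ± 0.12 (SD, n = 2), which is 1.23-fold lower, and probe A_52_P192418 gave -0.13 and -0.05. The authors' deposited log ratios of A_51_P382925, on the log2 scale, were -0.40 and -0.25 with an error of 0.21 on each array. Those of A_52_P192418 were -0.20 and -0.09 with an error of 0.21 on each array, so that its ratios were smaller than their error. Fadd was the single member with a mean below 0 under median centring, at -0.04.

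Cflar was read by 6 probes, and their means ran from -0.43 to -0.09 under loess, with the representative mean at 0.11 under median centring, or -0.10 relative to the median of all genes in that setting. That probe, A_51_P326091, had a level of 13.61 and 13.89 in knockdown cells on arrays 1 and 2, against 13.75 and 14.21 in control cells. The log2 ratios were -0.14 and -0.32, averaging -0.23 ± 0.13 (SD, n = 2). The 2 probes that the array annotation assigns to transcript variant 2 had the lowest means. A_52_P192071 read -0.27 and -0.60 and A_51_P135491 read -0.31 and -0.43. Both were dim, with raw control signals on arrays 1 and 2 of 183 and 233 for A_52_P192071 and 226 and 366 for A_51_P135491. The representative probe had 8786 and 11422. Another dim probe, A_52_P83888, with 153 and 168, had a mean log2 ratio of -0.09. The probe assigned to variant 1, A_52_P226929, read 0.00 and -0.39. It shares a run of 36 bases with A_52_P624648, which read 0.09 and -0.35, so these probes are not independent readings. All 6 probes were lower on array 2 than on array 1. The variant probes were not tested against each other.

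Counted over genes, 4 of the 9 members were above 0 on both arrays, against 40.6% of all tested genes, and 5 were below 0 on both, against 29.4%, while 0 had opposite signs, against 30%. Median centring left 0 members below 0 on both arrays. Of genes with the same sign on both arrays, 58.0% were higher in knockdown cells under loess, 46.8% with the processed signals and 84.4% under median centring. Ripk3, Casp1 and Casp12, 3 of the 9, were at least 1.5-fold higher on both arrays, against 2.62% of all tested genes, and 0 were at least 1.5-fold lower, against 0.338%. Ripk3 alone was at least 2-fold higher on both, against 0.631%, and 0 were at least 2-fold lower, against 0.0554%. The members were picked from this contrast, so nothing is read from these shares. The median of the 9 means was -0.03, beside 0.03 for all tested genes.

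**Figure D3:**
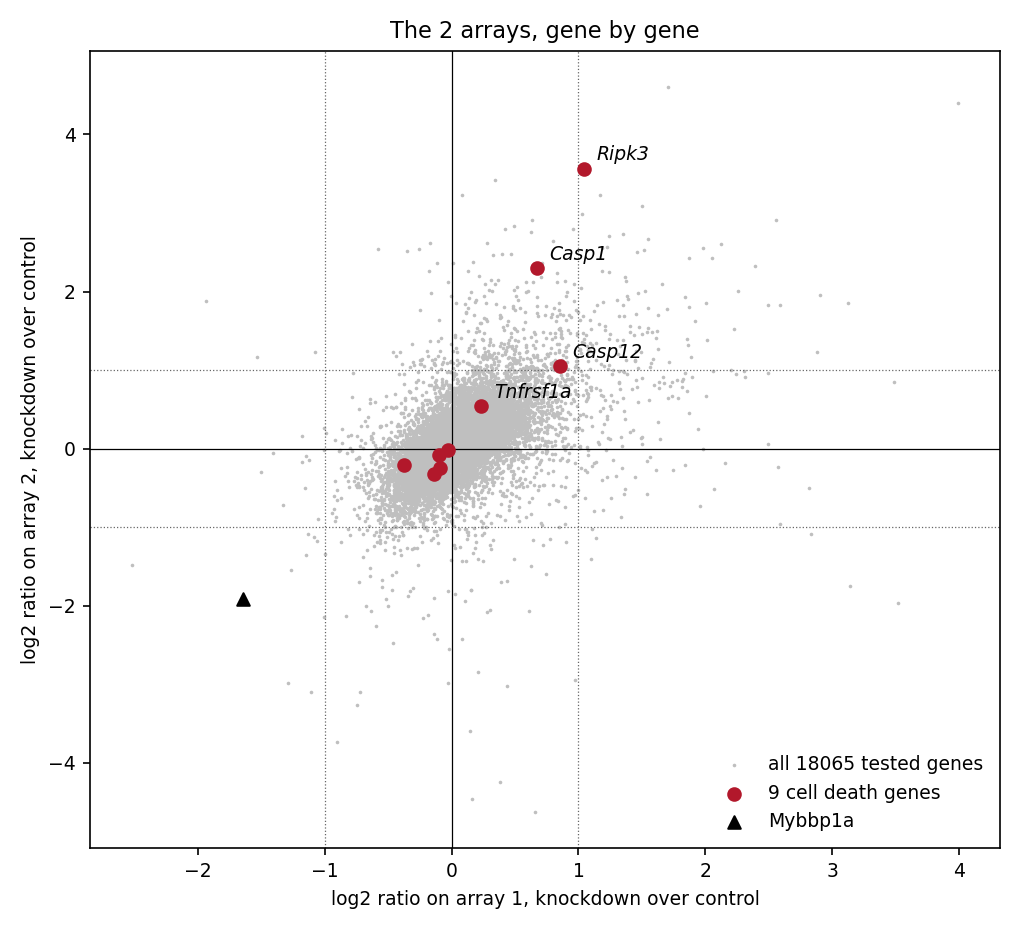
Log2 ratio on array 1 (horizontal axis) against array 2 (vertical axis) for all 18065 tested genes in grey, the 9 members as filled circles and Mybbp1a as a triangle; dotted lines mark a 2-fold ratio. Ripk3 at 1.05 and 3.56 and Casp1 at 0.67 and 2.30 lie well above the diagonal, Casp12 lies near it, and 5 members sit inside the central cloud.

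The genes whose pair of ratios lay nearest to that of Ripk3, by Euclidean distance over the 2 arrays, were Qpct (distance 0.35), Selenbp1 (0.58), Spon2 (0.65), Rsph9 (0.72) and Saysd1 (0.77). Their route to a high ratio on array 2 differed. In Selenbp1 the level on array 2 minus that on array 1 was 1.90 in knockdown cells and -0.05 in control cells. The same difference in control cells was -2.89 for Rsph9 and -2.65 for Saysd1, beside -3.06 for Ripk3.

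The tested neighbours of Ripk3 in the order of genes of the RefSeq annotation of mouse assembly GRCm38.p6 did not share its ratio. Nfatc4, next to it on the other side from Adcy4, had 0.13 and 0.21 on the arrays, and Ltb4r1 had -0.04 and -0.20. Adcy4 itself did not pass the filter on dim probes and was not tested. The further neighbours Ltb4r2 and Cbln3 were not tested either, and Nynrin was not on the array. Casp1, Casp4 and Casp12 are adjacent in that order, followed by Pdgfd, a growth factor gene. Casp4, which encodes mouse caspase-11, had a level of 14.04 and 13.99 in knockdown cells on arrays 1 and 2, against 13.66 and 12.29 in control cells. Its ratios of 0.38 and 1.70 gave a mean of 1.04 ± 0.93 (SD, n = 2), and Pdgfd had 0.66 and 0.89. The nearest tested genes on either side were closer to 0, with Gria4 at 0.04 and 0.04 and Dync2h1 at 0.16 and 0.33. Ddi1, between Pdgfd and Dync2h1, was not tested. The probes of the 3 caspases shared no run of 8 or more bases, and binding to transcripts of the other caspases was not tested. These neighbours were chosen after their values were seen.

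For the promoter of Ripk3, the 250 bases before its start site (chr14:55788858-55789107, minus strand, GRCm38.p6, RefSeq) are shown as the sequence next to the member with the largest ratio, with a GC box in capitals.
Ripk3 promoter: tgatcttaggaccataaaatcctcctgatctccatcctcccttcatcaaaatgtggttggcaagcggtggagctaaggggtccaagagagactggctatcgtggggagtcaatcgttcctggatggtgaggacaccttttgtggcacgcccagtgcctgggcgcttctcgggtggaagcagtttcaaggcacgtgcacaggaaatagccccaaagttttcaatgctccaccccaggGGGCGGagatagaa
Motifs were searched by their letters on both strands in windows from 250 bases before to 50 after each start, each motif separately so that overlaps count for both. The 9 genes matched 10 windows, Ripk1 having 2. The GC box GGGCGG was in 4 of these 10 windows (Ripk3, Fadd and both of Ripk1) and in 35.7% of all 32851 windows. The interferon-stimulated response element, searched as TTTC, any 2 bases and TTTC again, was in 2 (Cflar and a Ripk1 window) and in 3.44% of all, and the gamma-activated site TTCNNNGAA in 3 (Casp12, Tnfrsf1a and a Ripk1 window) and in 8.30% of all. The NF-kappa-B consensus was in 0 of the 10 and in 4.51% of all. A match is a description of letters and says nothing of binding.

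Genes around the receptor complex showed no common direction under loess. The list around the TNF receptor 1 complex held 26 genes, adaptors and ubiquitin enzymes with kinases, the ligand Tnf and the receptor Tnfrsf1b. Of these 25 were tested, 11 were higher and 7 lower on both arrays, and 0 passed limma in either direction (adjusted p from 0.188 to 0.984). Their median log2 ratio was 0.12. Traf5, a signalling adaptor, was highest at 0.23 and 0.83 and Chuk, a kinase of the NF-kappa-B pathway, lowest at -0.03 and -0.55. Of the other death receptors and ligands 12 of 15 were tested, 4 were higher and 6 lower on both arrays, and the median was -0.02, which median centring turned to 0.23. Unc5b, a dependence receptor, had 0.46 and 0.76, and Ngfr, the low-affinity neurotrophin receptor, a mean of -1.57 ± 0.81 (SD, n = 2). Again 0 passed limma (adjusted p from 0.183 to 0.880).

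Genes that switch necroptosis on or restrain it had a median close to that of all genes under loess. All 23 were tested, 11 were higher and 8 lower on both arrays, the median was 0.04 and 0 passed limma (adjusted p from 0.183 to 0.953). Median centring gave a median of 0.40, which is 0.18 above that of all tested genes. Flot1, a flotillin, was highest at 0.22 and 1.00 and Pgam5, a mitochondrial phosphatase, lowest at -0.25 and -0.83. Zbp1, a nucleic acid sensor that activates RIPK3 and named here after its values were seen, had 0.19 and 0.64. Ticam1, Tlr3 and Tlr4, of the same list and also named after their values were seen, had mean log2 ratios of 0.06, -0.03 and 0.16.

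The inflammasome and pyroptosis genes, the setting of Casp1, included 4 at least 1.5-fold higher on both arrays, beside 2.62% of all tested genes. The list was chosen with earlier results of these data known, so nothing is read from its shares. Of 19 genes 15 were tested, 11 were higher and 0 lower on both arrays, beside 40.6% higher and 29.4% lower of all tested genes, and the median was 0.22 beside 0.03 for all. The median was 0.43 with both colours required well above background and 0.50 under median centring, where that of all tested genes was 0.21. It was 0.18 with the processed signals, 0.20 with the deposited table, 0.20 on array 1 alone and 0.35 on array 2 alone. Again 0 passed limma in either direction (adjusted p from 0.176 to 0.941). Txnip, a thioredoxin-binding protein, had 1.18 and 2.26, and Il1rn, the interleukin-1 receptor antagonist, 1.35 and 1.83. Il18, a cytokine matured by caspase-1, had 0.79 and 0.73, and P2rx7, an ATP-gated channel, 0.71 and 0.77. Gsdmd, which forms the pores of pyroptosis and was named after its values were seen, had 0.11 and 1.73. Il1b, at 0.20 and -0.39, was lowest, and each colour read it well above background on 1 of the 2 arrays. The inflammasome sensors Aim2, Nlrc4 and Mefv had probes but were not tested, being too close to background.

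The apoptotic machinery downstream of Casp8 and Fadd had a median near 0. Of 18 apoptotic caspases, apoptosome genes and their inhibitors 17 were tested, 7 were higher and 7 lower on both arrays, and the median was -0.01, or 0.27 under median centring. Of 19 genes of the BCL2 family 17 were tested, 6 were higher and 7 lower on both, with a median of -0.01 that turned positive with the processed signals, the deposited table and median centring. Bmf, a BH3-only activator of apoptosis, had 1.27 and 1.01, and Bok, a BAX-like member, -0.51 and -0.44. In each list 0 genes passed limma in either direction, with adjusted p from 0.182 to 0.967 and from 0.176 to 0.974.

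For Casp12, the sensors and targets of endoplasmic reticulum stress gave a setting. All 13 were tested, 4 were higher and 5 lower on both arrays, and the median was -0.03, or 0.24 under median centring. Hsp90b1, a chaperone of that compartment, had 0.69 and 0.48, and Trib3, a target of the stress response, -0.83 and -0.30. Of 15 interferon signalling factors 14 were tested, 11 were higher and 1 lower on both, beside 40.6% and 29.4% of all tested genes. Their median was 0.21, beside 0.03 for all tested genes, and 0.12 on array 1 alone. Under median centring it was 0.49, where that of all tested genes was 0.21. Ifnar2, a subunit of the type I interferon receptor, had 0.68 and 0.65 and Irf8, a transcription factor, -0.03 and -0.20. In both lists 0 passed limma in either direction (adjusted p from 0.182 to 0.926 and from 0.178 to 0.995).

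**Figure D4:**
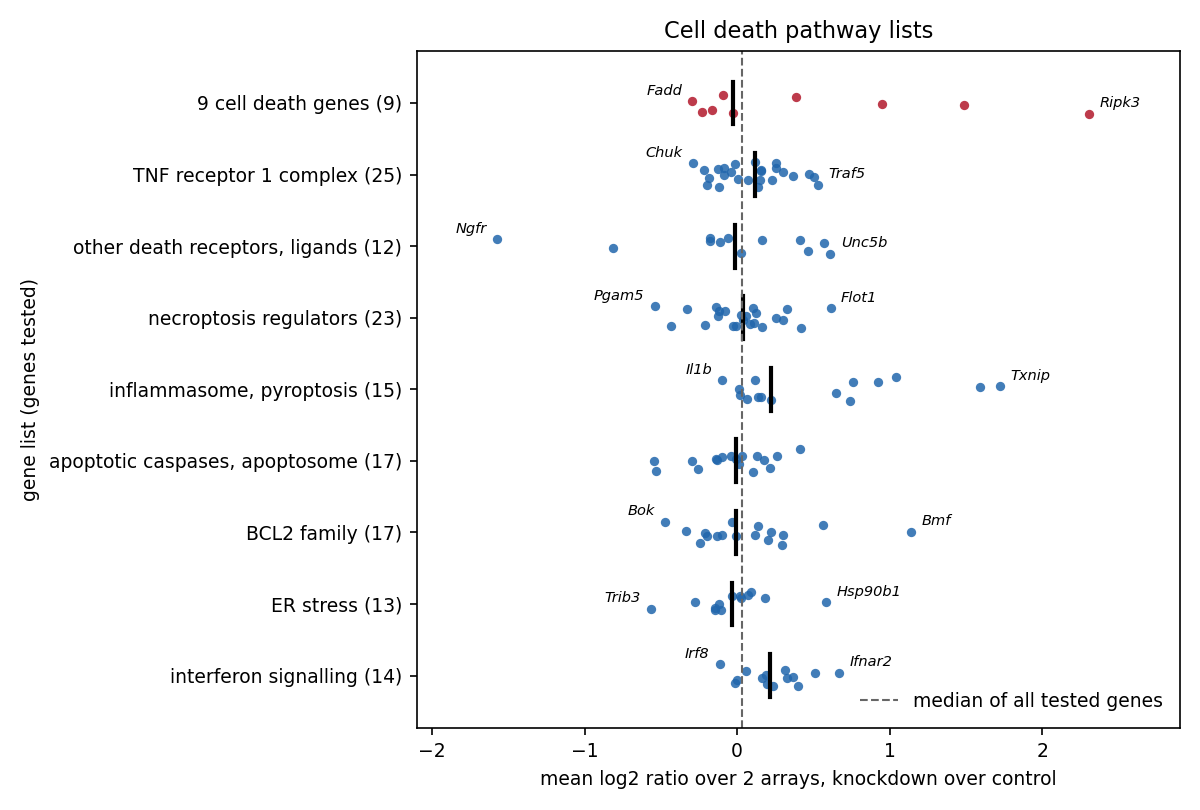
Mean log2 ratio over the 2 arrays (horizontal axis) of each tested gene, by list (vertical axis, number tested in brackets), with a bar at each list's median and a dashed line at the median of all tested genes, 0.03. The inflammasome and interferon lists have medians of 0.22 and 0.21 and the other 6 lists lie between -0.03 and 0.12; median centring shifts all tested genes to a median of 0.21 and puts every list median above 0.

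Markers of other cell types were read beside these values, because Ripk3 and Casp1 are known from immune cells. All 8 myoblast markers were well above background on both arrays, 4 were higher and 1 lower on both, and Myog had the highest mean log2 ratio (0.65) and Chrna1 the lowest (-0.15). The summed levels of all 8 on the linear scale, set side by side for the same probes only, were 150607 and 132590 in knockdown cells, against 156205 and 130141 in control cells, with Chrna1 at 55.7% to 70.0% of each. Without Chrna1 the sums were 66670 and 54823 in knockdown cells, against 68536 and 39017 in control cells, so they were higher in knockdown cells on array 2 only. Of 13 leukocyte and macrophage markers 8 were tested, 4 were higher and 1 lower on both arrays. Their sums were 6343 and 6463 in knockdown cells, against 5887 and 6564 in control cells, with Cd14 at 42.9% to 54.6% of each. Without Cd14 the sums were 3358 and 3690 in knockdown cells, against 2672 and 3220 in control cells. Ptprc, the pan-leukocyte gene, was not well above background in any channel. Tyrobp had the highest mean (0.68) and Lyz2 the lowest (-0.25). Of 6 fibroblast markers 5 were tested and 5 were higher on both arrays, beside 40.6% of all tested genes. Of these 5, 2 were at least 1.5-fold higher, beside 2.62% of all, and 0 passed limma in either direction (lowest adjusted p 0.182). Their sums were 101140 and 86942 in knockdown cells, against 70812 and 26415 in control cells, and Ly6a, which is not confined to fibroblasts, made up 79.7% to 88.1% of each. Without Ly6a the sums were 12007 and 14074 in knockdown cells, against 9486 and 5368 in control cells. Pdgfra had 0.98 and 1.77 and Lum 0.10 and 0.30, and Thy1 was not well above background in any channel. Of 4 endothelial markers 2 were tested, Cdh5 at 1.03 and 0.68 and Tek at 0.13 and 0.22, with sums of 486 and 427 in knockdown cells, against 321 and 313 in control cells. Pecam1 was not well above background in any channel. The part of the leukocyte and macrophage, fibroblast and endothelial markers in the ratios of Ripk3, Casp1 and Casp12 was not tested.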

How the data were processed

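The authors deposited scanner files with mean and background intensity per spot and colour, written by Feature Extraction 9.5.3.1 per the file headers. The deposited files also hold processed intensities and a log10 ratio of Cy5 over Cy3 with its error. The deposited value table was found to hold log2 ratios, within 0.001 of that log10 ratio on the log2 scale for 99.4% of probes. Here intensities were corrected with normexp (offset 50) and normalized by loess (span 0.3) in limma 3.58.1 under R 4.3.3. Control spots (1639) and outlier-flagged spots (154 and 237) were left out, and spots of a probe were averaged. Probes were named through RefSeq accessions (23374), symbols (6733) or synonyms (2919), and 8148 kept the file's name. A probe was tested where on each array at least 1 colour, not always the same, was well above background and a spot was left after the flags, and the brightest such probe represented a gene. limma tested every gene for a log2 ratio other than 0, with Benjamini-Hochberg adjustment. The number of arrays, 2, limits the precision.

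The members and lists were chosen with earlier results of these data known. Named genes are the members, Mybbp1a, list genes past 1.5-fold on both arrays in 1 direction (at most 4 a list), the highest and lowest of each list, and the 5 genes nearest to Ripk3. Some genes that this rule names are not reported here. Alternatives were the processed signals, median centring, normexp offset 16, other filters on dim probes, the mean over probes, the deposited table and either array alone.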

Additional observations from a re-analysis of the deposited data

How the results depend on the processing

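Ripk3, Casp1, Casp12 and Tnfrsf1a were above 0 in their mean under every alternative run on both arrays, where Ripk3 ran from 2.30 to 2.68, Casp1 from 1.48 to 1.75, Casp12 from 0.95 to 1.22 and Tnfrsf1a from 0.35 to 0.83. Single arrays gave Ripk3 1.05 to 3.56. Median centring moved the median of all tested genes to 0.21, put 0 members below 0 on both arrays and gave 3035 genes called higher and 58 lower by limma; the cause was not tested. Genes past 2-fold on both arrays, 114 higher and 10 lower with the settings of the report, numbered 234 and 23 with the processed signals, 289 and 6 under median centring and 223 and 22 with the deposited table; the cause was not tested. On a single array they ran from 254 to 493 higher and from 24 to 151 lower. Members above 0 numbered 4 without either array. No paired analysis was possible because there is 1 group of ratios. Slide and replicate cannot be told apart. The smallest p of an exact sign-flip test over 2 arrays is 0.5. A single array leaves no residual degrees of freedom, so limma calls were not run on it.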
